A study of Mus musculus with 18 samples.

Results

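The genes described here are 5 cyclin-dependent kinase (CDK) inhibitors measured by RNA sequencing in regulatory T (Treg) cells. Cdkn1a and Cdkn1b belong to the Cip/Kip family, and Cdkn2a, Cdkn2c and Cdkn2d to the INK4 family. They were chosen by name, and each of the 5 had 1 row in a table of 23949 genes. All 5 were among the 11520 genes tested, those with at least 1 RPKM in at least 3 of the 18 libraries. RPKM is the number of reads per kilobase of transcript and scaled to the reads of the library. Cdkn2a reached 1 RPKM in 8 libraries and met the filter through miR-27 Tg and cluster Tg.

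Treg cells were sorted as CD4+ cells with high CD25 from C57BL/6 mice of 6 genotypes, with 3 libraries each. In miR-23 Tg, miR-24 Tg and miR-27 Tg mice a single microRNA of the miR-23 cluster was overexpressed in T cells through CD4cre. Cluster Tg mice overexpressed the whole cluster in the same way, and in DKO mice the clusters of miR-23a and of miR-23b were both deleted in T cells. WT mice were the control, and the labels do not say whether they carried the Cre. CD4cre acts in T cells generally, so the other T cells of each animal carried the same change as the sorted Treg cells. The labels do not say that libraries of a group came from separate animals, so p-values measure only the spread between these samples, which may be technical. Tests were two-sided limma comparisons, with p adjusted by the Benjamini-Hochberg method over the 11520 genes and called under 0.05.

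The labels were checked against the microRNA loci. Mir27a entries ranged over 50014-79108 RPKM in miR-27 Tg cells and 13710-24076 RPKM in cluster Tg, against 0-346.7 RPKM in WT. For Mir23a the values were 31028-38276 RPKM in miR-23 Tg libraries and 11691-22900 RPKM in cluster Tg libraries, and for Mir24-2 they were 7999-22325 RPKM in miR-24 Tg libraries. In DKO, Mir23a and Mir27a were listed at 0 in all 3 libraries and Mir24-2 at 0, 11.5 and 0 RPKM. WT library 3 was also listed at 0 for Mir23a and Mir27a, so these entries check the overexpressing groups and not the deletion. The summed level of 6 Treg marker genes was 1487-1921 RPKM over the overexpressing groups, 1710-1796 RPKM in DKO and 1582-1756 RPKM in WT. Foxp3, the factor that defines Treg cells, was at 215-249 RPKM in miR-23 Tg and 236-291 RPKM in miR-24 Tg. It was at 197-328 RPKM in miR-27 Tg, 207-283 in cluster Tg, 312-348 in DKO and 287-336 in WT. All libraries of miR-23 Tg and cluster Tg were thus below those of WT for Foxp3. Relative depth between libraries differed by at most 1.53-fold, with an estimated 21.1-32.2 megareads each.

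CDK inhibitors act as brakes on the cell cycle. INK4 proteins bind CDK4 and CDK6 and keep them from their D-type cyclins, while Cip/Kip proteins mainly restrain cyclin E and cyclin A complexes with CDK2. When these kinases are active they phosphorylate Rb family proteins and release E2F factors, which drive the genes of DNA replication. Cdkn1b (p27Kip1) is abundant in resting lymphocytes and is removed as T cells enter the cycle, and Cdkn1a (p21Cip1) is a classical p53 target. Cdkn2a encodes p16Ink4a and, from another reading frame, p19Arf, which stabilises p53 by holding back Mdm2. Cdkn2c encodes p18Ink4c and Cdkn2d encodes p19Ink4d, and p18Ink4c is known to limit T cell proliferation in mice.

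A microRNA recognises targets chiefly through its seed, bases 2 to 8, paired with a 3' UTR. Mature sequences of the miR-23, miR-24 and miR-27 families are shown because the seeds differ between these 3 families. Those of miR-27a and miR-27b share the same seed, and the level of miR-27b was not checked. The seed is in capitals (RefSeq, GRCm38.p6):
mmu-miR-23a-3p: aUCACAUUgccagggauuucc
mmu-miR-24-3p: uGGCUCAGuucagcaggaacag
mmu-miR-27a-3p: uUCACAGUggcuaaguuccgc
mmu-miR-27b-3p: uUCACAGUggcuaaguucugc

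The 7-base complements of these seeds, AATGTGA for miR-23, CTGAGCC for miR-24 and ACTGTGA for miR-27, were looked for on the transcript strand in each member's longest annotated 3' UTR (GENCODE M21, GRCm38). Of the 10185 tested genes with a 3' UTR of at least 50 bases, 16.5% held the miR-23 complement, 19.1% the miR-24 complement and 17.1% the miR-27 complement. Among the 5 members, 1 held a match to miR-24 (Cdkn1b) and 1 held a match to miR-23 (Cdkn2d), and none held a match to miR-27. Both matches are shown with their surroundings, the 7 matching bases in capitals. The Cdkn1b match starts at base 3351 of a 3439-base UTR (chr6:134925414-134925442, plus strand), and the Cdkn2d match at base 394 of a 907-base UTR (chr9:21288962-21288990, minus strand).
Cdkn1b, miR-24 match: aaggttgcataCTGAGCCaagtataattt
Cdkn2d, miR-23 match: atgatgatcccAATGTGAcccaaggccac

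The 3' UTRs of Cdkn1a, Cdkn2a and Cdkn2c were 1334, 264 and 373 bases long and held none of the 3 complements. These are the 3 members whose RPKM was higher in miR-27 Tg or cluster Tg, as described next. Cdkn1b and Cdkn2d did not pass against WT in the fit of all 18 libraries. Without miR-24 Tg library 2, Cdkn1b passed as lower in miR-24 Tg (log2 -0.33, adjusted p = 0.0301, limma). Whether the matches bear on these levels was not tested.

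Cdkn1a, Cdkn2a and Cdkn2c differed among the 6 genotypes, and Cdkn1b and Cdkn2d did not pass. The moderated F test gave adjusted p = 9.41e-06 for Cdkn2c, 0.00024 for Cdkn2a and 0.0411 for Cdkn1a, against 0.342 for Cdkn1b and 0.756 for Cdkn2d. By that test 43.0% of all tested genes passed, so 3 of 5 members, or 2 of 4 without Cdkn2a, is near the background. The call of Cdkn1a was lost when any of 10 libraries of the 18 was left out (adjusted p up to 0.0886). Cdkn1b passed the F test when miR-24 Tg library 2 was left out (adjusted p = 0.0397).

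**Figure D1:**
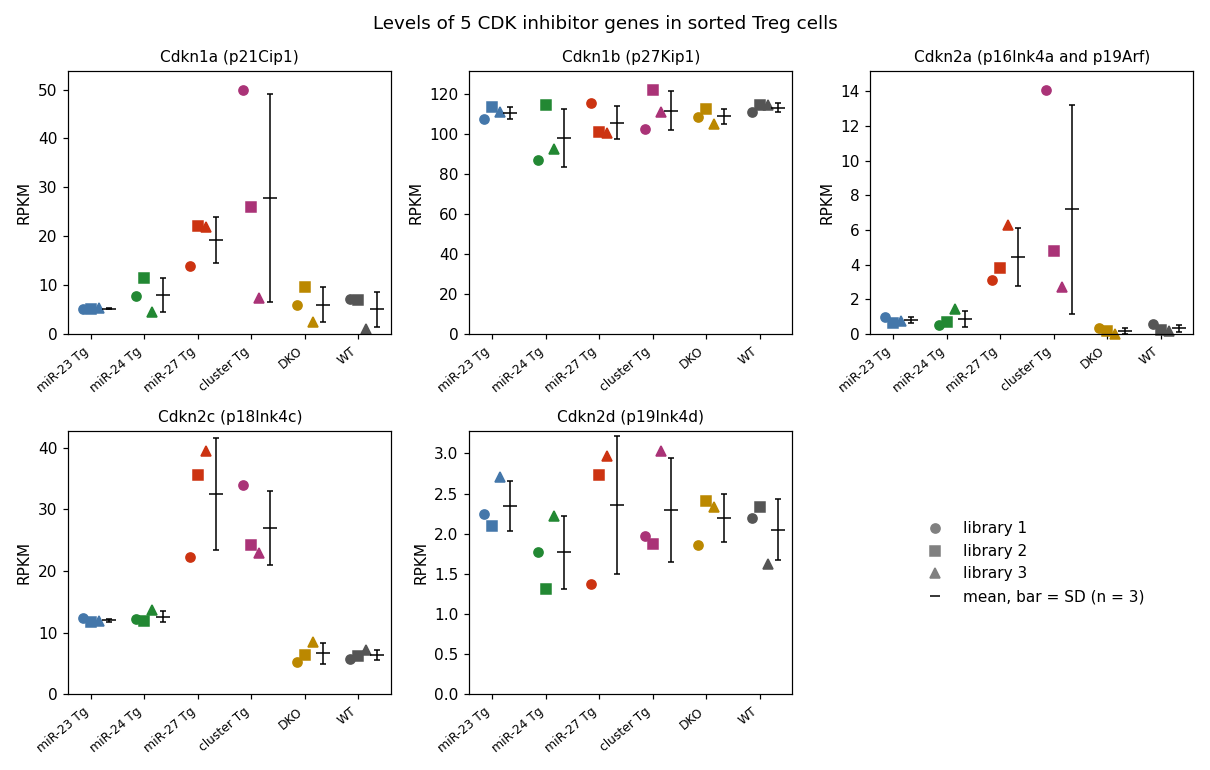
RPKM of the 5 CDK inhibitor genes (vertical axes, linear, from 0) in each library of the 6 genotypes. Symbols mark libraries 1 to 3, dashes the group mean and bars the SD (n = 3). Cdkn2c and Cdkn2a are higher in miR-27 Tg and cluster Tg than in WT without overlap, and Cdkn1b lies between 87.0 and 122 RPKM throughout.

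Cdkn2c (p18Ink4c; chr4:109660876-109667189, minus strand, GRCm38) had the clearest differences. It was at 12.3, 11.8 and 11.9 RPKM in miR-23 Tg cells and at 12.2, 12.0 and 13.6 RPKM in miR-24 Tg. It was at 22.3, 35.6 and 39.5 RPKM in miR-27 Tg cells and at 33.9, 24.2 and 22.9 RPKM in cluster Tg. DKO libraries had 5.18, 6.33 and 8.45 RPKM, and WT libraries 5.73, 6.17 and 7.21 RPKM. Every library of the 4 overexpressing groups was above every WT library, while DKO and WT overlapped. The levels therefore fell into 3 tiers, with miR-27 Tg and cluster Tg on top, miR-23 Tg and miR-24 Tg between, and DKO with WT at the bottom.

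Against WT, Cdkn2c was 4.69-fold higher in miR-27 Tg (log2 fold change 2.23, SE 0.20; adjusted p = 1.3e-05, limma). It was 3.96-fold higher in cluster Tg (log2 1.99, SE 0.20; adjusted p = 3.8e-05, limma) and 1.91-fold higher in miR-24 Tg (log2 0.94, SE 0.20; adjusted p = 0.0109, limma). In miR-23 Tg the ratio was 1.83-fold with a 95% interval of 1.35-2.47, at an adjusted p of 0.0881 in the limma fit, so it did not pass. The means of miR-23 Tg and miR-24 Tg were close, at 12.0 ± 0.273 and 12.6 ± 0.895 RPKM (SD, n = 3 each), against 6.37 ± 0.758 RPKM in WT (SD, n = 3). The values rest on whole reads in all 18 libraries, from 538 to 1113 reads in miR-27 Tg and cluster Tg, 251 to 343 in miR-23 Tg and miR-24 Tg, 139 to 230 in DKO, and 152 to 226 in WT. In bulk RNA, a change in the share of cells that carry a transcript and a change in its amount per cell cannot be told apart.

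The tiers of Cdkn2c were also tested directly. It was 2.57-fold higher in miR-27 Tg than in miR-23 Tg (adjusted p = 0.00046) and 2.45-fold higher than in miR-24 Tg (adjusted p = 0.000686). In cluster Tg it was 2.17-fold higher than in miR-23 Tg (adjusted p = 0.00224) and 2.07-fold higher than in miR-24 Tg (adjusted p = 0.00575). The neighbours within a tier did not differ beyond their spread. Cluster Tg was at 0.845 times miR-27 Tg (95% interval 0.625-1.14) and miR-24 Tg at 1.05 times miR-23 Tg (0.776-1.42). Between the lower tiers, miR-24 Tg was 1.86-fold above DKO (adjusted p = 0.0126), and miR-23 Tg was at 1.78 times DKO with an adjusted p of 0.0532. The miR-24 Tg call against DKO was lost with the mean log2 level of B cell marker genes as a covariate (log2 0.64, adjusted p = 0.232). The miR-23 Tg difference from DKO passed with a pseudocount of 0.1 (adjusted p = 0.0472), with the replicate number as a block (0.0442) and without DKO library 3 (0.0452).

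Cdkn2a (chr4:89274471-89294653, minus strand, GRCm38) was near the detection limit in most libraries. The table has 1 entry for the gene, so transcripts of p16Ink4a and p19Arf cannot be told apart. It was at 1.01, 0.648 and 0.777 RPKM in miR-23 Tg cells and at 0.546, 0.689 and 1.42 RPKM in miR-24 Tg. It was at 3.12, 3.84 and 6.32 RPKM in miR-27 Tg cells and at 14.1, 4.79 and 2.71 RPKM in cluster Tg. DKO libraries had 0.371, 0.203 and 0 RPKM, and WT libraries 0.580, 0.253 and 0.198 RPKM. All 6 miR-27 Tg and cluster Tg libraries were above all others, and DKO overlapped WT.

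On the log2(RPKM + 0.5) scale Cdkn2a was 5.74-fold higher in miR-27 Tg than in WT (log2 2.52, SE 0.44; adjusted p = 0.000932, limma) and 7.58-fold higher in cluster Tg (log2 2.92, SE 0.44; adjusted p = 0.000465, limma). The added 0.5 RPKM is larger than the WT mean, so these values understate the change, and the ratio of mean RPKM was 12.9 in miR-27 Tg cells and 20.9 in cluster Tg. Cdkn2a was also 3.65-fold higher in miR-27 Tg than in miR-23 Tg (adjusted p = 0.00782) and 3.55-fold higher than in miR-24 Tg (adjusted p = 0.00895), though the comparison with miR-24 Tg did not pass without the first library of miR-24 Tg and the third of miR-27 Tg (log2 1.39, adjusted p = 0.108) or with a proliferation covariate (log2 1.79, adjusted p = 0.1). The same comparisons of cluster Tg gave 4.82-fold (adjusted p = 0.00332) and 4.70-fold (adjusted p = 0.00641).

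Within cluster Tg, Cdkn2a varied 5.20-fold between libraries, with a mean of 7.19 ± 6.05 RPKM (SD, n = 3). Without cluster Tg library 1 the log2 change against WT was 2.32, and the call held. The ratio of cluster Tg to miR-27 Tg was 1.32 with a 95% interval of 0.689-2.54, so those groups could not be ordered. In miR-23 Tg and miR-24 Tg the ratios to WT were 1.57 (0.820-3.02) and 1.62 (0.842-3.10), and neither passed. Counting limits these low values, since WT libraries held about 5 to 14 reads of Cdkn2a, DKO libraries 0 to 8, miR-27 Tg libraries about 76 to 110 and cluster Tg libraries 54 to about 336.

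Cdkn2b, which encodes p15Ink4b and lies beside Cdkn2a (chr4:89306299-89311039, minus strand), was too low to be tested, with at least 1 RPKM in 2 libraries. It was at 0.801, 0.655 and 0.666 RPKM in miR-27 Tg cells and at 2.61, 1.26 and 0.826 RPKM in cluster Tg, against 0.221, 0.246 and 0.0242 RPKM in WT. The ranges were 0.0790-0.488 RPKM for miR-23 Tg libraries, 0.193-0.815 for miR-24 Tg libraries and 0.198-0.390 for DKO. The cluster Tg and miR-27 Tg libraries were above the WT libraries, on 19 to 102 reads each against 1 to 9 in WT, but miR-24 Tg library 1 was above all 3 miR-27 Tg libraries, unlike for Cdkn2a. Cluster Tg library 1 was the highest library for both genes.

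Cdkn1a (p21Cip1; chr17:29090976-29100727, plus strand, GRCm38) was higher in miR-27 Tg and cluster Tg, with a wider spread between libraries than Cdkn2c. It was at 5.08, 5.16 and 5.34 RPKM in miR-23 Tg cells and at 7.74, 11.5 and 4.51 RPKM in miR-24 Tg. It was at 13.9, 22.0 and 21.8 RPKM in miR-27 Tg cells and at 49.9, 25.9 and 7.47 RPKM in cluster Tg. DKO libraries had 5.96, 9.58 and 2.44 RPKM, and WT libraries 7.22, 7.03 and 0.995 RPKM. The third cluster Tg library was close to the first WT library, and the third WT library stood far below the other two.

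Cdkn1a was 4.36-fold higher in miR-27 Tg than in WT (95% interval 1.58-12.1; log2 2.13, SE 0.69; adjusted p = 0.0316, limma). It was 4.96-fold higher in cluster Tg (95% interval 1.79-13.7; log2 2.31, SE 0.69; adjusted p = 0.0251, limma). Both calls rested on single libraries. Without WT library 3 the log2 changes were 1.34 in miR-27 Tg (adjusted p = 0.146, limma) and 1.53 in cluster Tg (adjusted p = 0.112, limma). The cluster Tg call was also lost without cluster Tg library 1 (1.71, adjusted p = 0.133, limma) or 2 (2.18, adjusted p = 0.0692, limma), and the miR-27 Tg call without miR-27 Tg library 2 (2.01, adjusted p = 0.0899, limma) or 3 (2.02, adjusted p = 0.0895, limma). Directly against miR-23 Tg, Cdkn1a was at 3.40 times in miR-27 Tg (adjusted p = 0.0761) and at 3.86 times in cluster Tg (adjusted p = 0.0617), and against DKO at 3.35 and 3.81 times (adjusted p = 0.0716 and 0.0507), none of which passed.

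Windows from 250 bases before to 50 bases after annotated starts were searched for motifs, and 1 window of Cdkn1a holds a near match to the p53 consensus. The consensus of a pair of adjoining decamers, searched with at most 1 base off, was present in 0.0883% of 32851 RefSeq promoter windows (GRCm38.p6) and in 1 of the 8 windows of the 5 members. It is shown because Cdkn1a is the member best known as a p53 target, with the 20 matching bases in capitals, 1 of them off the consensus (chr17:29090923-29090952, plus strand).
Cdkn1a, near match to the p53 consensus: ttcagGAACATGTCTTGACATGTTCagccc

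Cdkn1a has 2 such windows, and the match is in 1 of them. It ends 31 bases before the annotated start of that window. The E2F motifs TTTCGCGC (0.323% of windows, both strands) and TTTGGCGC (0.514%) were in no member's window. The E box CACGTG (7.15%) was in 1 window of Cdkn2c, after the start. A match is a description of the letters in the window and not a measurement of binding.

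Cdkn1b (p27Kip1; chr6:134920401-134925513, plus strand, GRCm38) was by far the most abundant member and the steadiest. It was at 107, 113 and 111 RPKM in miR-23 Tg libraries, 87.0, 114 and 92.3 in miR-24 Tg libraries, 115, 101 and 100.4 in miR-27 Tg and 102, 122 and 111 in cluster Tg libraries. DKO libraries had 109, 112 and 105 RPKM, and WT libraries 111, 114 and 114 RPKM. Each group overlapped WT. It averaged 110 ± 2.95 RPKM in miR-23 Tg cells, 97.9 ± 14.5 in miR-24 Tg, 106 ± 8.31 in miR-27 Tg, 112 ± 9.72 in cluster Tg, 109 ± 3.67 in DKO and 113 ± 2.10 in WT (SD, n = 3 each). Its 18 libraries spanned 87.0-122 RPKM, a 1.40-fold range, and its mean was at the 93.4 percentile of tested genes. The lowest libraries were miR-24 Tg 1 and 3, at 87.0 and 92.3 RPKM, while miR-24 Tg 2 was at 114 RPKM. Its ratio of miR-24 Tg to WT was 0.860 (95% interval 0.750-0.987; adjusted p = 0.168, limma), and without miR-24 Tg library 2 the log2 difference of -0.33 passed (adjusted p = 0.0301, limma).

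Cdkn2d (p19Ink4d; chr9:21288410-21291407, minus strand, GRCm38) was low and even. It had 2.24, 2.10 and 2.70 RPKM in miR-23 Tg, and 1.78, 1.31 and 2.22 RPKM in miR-24 Tg. It had 1.37, 2.73 and 2.97 RPKM in miR-27 Tg, and 1.97, 1.87 and 3.04 RPKM in cluster Tg. DKO libraries had 1.86, 2.40 and 2.33 RPKM, and WT libraries 2.19, 2.34 and 1.62 RPKM. The groups overlapped throughout, on 39 to 101 reads a library. The 95% interval of the ratio to WT was 0.771-1.54 in miR-27 Tg cells and 0.768-1.53 in cluster Tg, so smaller changes were not detectable here.

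By comparison, 3 of the 5 members passed against WT in miR-27 Tg cells and 3 in cluster Tg, all higher, where 15.9% and 13.8% of all tested genes passed as higher. Cdkn2a met the filter through these groups, so its calls there add nothing to the count, and without it 2 of 4 members passed in each. In miR-24 Tg 1 member passed as higher, against 4.60% of all genes. In miR-23 Tg 0 of 5 passed, where 0.356% of genes passed in either direction, and 1 member, Cdkn2c, had an unadjusted limma p under 0.05, as did 1567 genes. In DKO 0 of 5 passed with limma, each at an adjusted p of 1, where 0.0174% of genes passed and 254 genes but 0 members had an unadjusted p under 0.05. The median log2 difference of the 5 members was 0.36, 0.69, 2.13 and 1.99 in miR-23 Tg, miR-24 Tg, miR-27 Tg and cluster Tg and 0.04 in DKO, beside medians of 0.01, 0.01, 0.01 and 0.02 and of -0.004 over all tested genes. The 5 comparisons share the WT libraries.

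**Figure D2:**
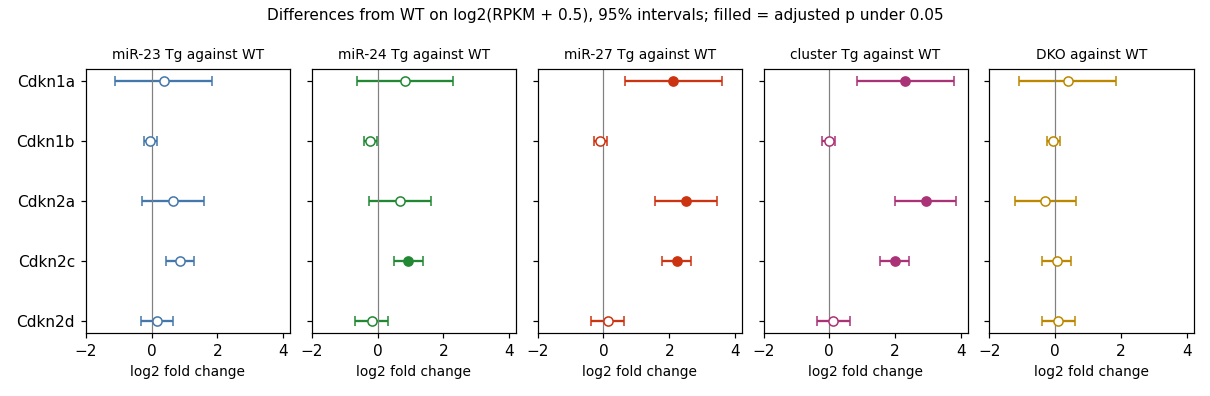
Log2 fold change of each member against WT (horizontal axes, log2(RPKM + 0.5) scale) in the 5 other genotypes, with 95% intervals from the limma fit. Filled points had an adjusted p under 0.05: Cdkn2c in miR-24 Tg, and Cdkn1a, Cdkn2a and Cdkn2c in miR-27 Tg and cluster Tg.

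The genotypes other than WT were also compared with each other, and 13 of 50 combinations of a member and a pair passed, all of them Cdkn2a or Cdkn2c. The pair of genes passed as higher in miR-27 Tg than in miR-23 Tg, miR-24 Tg and DKO, where 12.4%, 13.2% and 15.7% of all genes passed as higher. Both also passed as higher in cluster Tg than in miR-23 Tg, miR-24 Tg and DKO, where 10.9%, 6.45% and 15.1% of genes did. Cdkn2a met the filter through miR-27 Tg and cluster Tg, so its calls there add nothing to these counts. Only the calls of Cdkn2c can be read against these shares. Against DKO, Cdkn2a was 7.05-fold higher in miR-27 Tg (adjusted p = 0.000453) and 9.32-fold higher in cluster Tg (adjusted p = 0.000187), with a DKO mean of 0.191 ± 0.186 RPKM (SD, n = 3). Cdkn2c alone passed in miR-24 Tg against DKO, where 5.05% of genes passed as higher. No member passed in cluster Tg against miR-27 Tg, in miR-24 Tg against miR-23 Tg or in miR-23 Tg against DKO, where 6.85%, 13.9% and 1.77% of genes passed in either direction.

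The mix of inhibitor transcripts shifted accordingly. The summed RPKM of the 2 Cip/Kip genes over that of the 3 INK4 genes was 7.23-8.15 in miR-23 Tg cells, 5.61-9.02 in miR-24 Tg, 2.50-4.81 in miR-27 Tg cells and 3.05-4.78 in cluster Tg, against 9.98-15.5 in DKO and 12.8-13.9 in WT. No library of the 4 overexpressing groups reached the range of WT, and DKO spanned it. Cdkn1b made up 58.7-73.9% of the summed RPKM of the 5 genes in miR-27 Tg cells and 50.6-75.4% in cluster Tg, against 87.6-91.9% in WT.

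**Figure D3:**
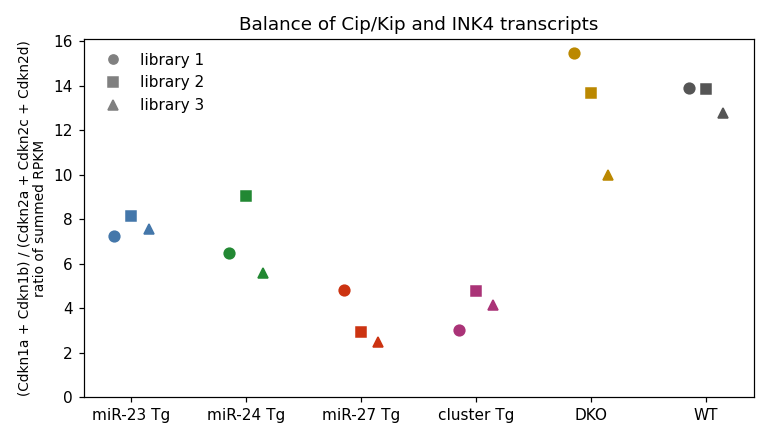
Ratio of the summed RPKM of Cdkn1a and Cdkn1b to that of Cdkn2a, Cdkn2c and Cdkn2d (vertical axis, linear, from 0) in each library, by genotype. The miR-27 Tg and cluster Tg libraries sit at 2.50-4.81 and the WT libraries at 12.8-13.9.

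Across the 18 libraries Cdkn2a and Cdkn2c had a Pearson r of 0.912 on log2(RPKM + 0.5), Cdkn1a and Cdkn2a 0.827, and Cdkn1a and Cdkn2c 0.708. Cdkn1b and Cdkn2d were unrelated to the rest, with r between -0.212 and 0.212. These describe 18 libraries that share 6 genotypes and are not a test. The genes most like Cdkn2c among 8147 candidates were Trim37 (r = 0.979), Zfp367 (0.976) and H1f0, a linker histone (0.968). H1f0 had 50.6 ± 8.36 RPKM in miR-27 Tg cells and 58.1 ± 7.62 in cluster Tg, against 19.9 ± 1.26 in WT (SD, n = 3 each). Nearest to Cdkn2a were Fuca1 (0.944), Nptn (0.943) and Rab1 (0.939), and nearest to Cdkn1a were Psrc1 (0.939), Chsy1 (0.919) and the transcription factor Runx2 (0.905). The best partners of Cdkn1b (Tbc1d14, Ypel2 and Nrbp1) reached r of 0.777-0.802, and those of Cdkn2d (Elp6, Galk1 and Mrpl55) 0.748-0.824.

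The remaining inhibitors and the partners of the members were described from lists chosen for their function. Over all tested genes, 15.9% passed as higher and 12.7% as lower in miR-27 Tg cells, 13.8% and 10.5% in cluster Tg, and 4.60% and 4.38% in miR-24 Tg, and the counts of each list are to be read against these shares. Cdkn1c (p57Kip2) had 1.99 ± 0.423 RPKM in miR-27 Tg cells and 2.12 ± 0.399 in cluster Tg, against 1.56 ± 0.368 in WT (SD, n = 3 each), and did not pass. Cdkn3, a phosphatase that acts on CDKs and peaks in dividing cells, was 3.31-fold higher in miR-27 Tg (adjusted p = 0.00446, limma) and 2.49-fold higher in cluster Tg (adjusted p = 0.0234, limma).

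INK4 proteins bind CDK4 and CDK6, and Cip/Kip proteins restrain complexes of CDK2 with its cyclins. Of 8 G1 CDKs and D and E cyclins, 5 were higher in miR-27 Tg than in WT, 0 lower and 3 did not pass, beside 15.9% of all genes higher. Ccne2 and Ccne1, the E cyclins, were 3.17-fold and 2.22-fold higher, Cdk2 1.40-fold and Ccnd3 1.44-fold. In cluster Tg Ccne2 alone passed, at 2.77-fold, beside 13.8% of all genes higher. In miR-23 Tg, miR-24 Tg and DKO 0 of 8 passed in the limma fit.

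Of 13 Rb family and E2F genes, 8 were higher and 1 lower in miR-27 Tg, beside 15.9% and 12.7% of all genes. Rbl1 (p107) was 1.47-fold, Tfdp1, the partner of E2F factors, 1.73-fold, and the repressive E2Fs E2f7 and E2f8 3.04-fold and 3.92-fold higher, while E2f5 was 1.52-fold lower. In cluster Tg 4 were higher, E2f2 at 1.67-fold, E2f7 at 1.86-fold, Rbl1 at 1.21-fold and Tfdp1 at 1.32-fold, and E2f4, a repressive E2F, was 1.27-fold lower, beside 13.8% of all genes higher and 10.5% lower. E2f4 was 1.33-fold lower in miR-24 Tg too, the 1 gene of this list that passed there. In miR-23 Tg and DKO 0 of 13 passed in the limma fit.

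Of 8 genes that control the stability of the p27 protein, 2 were higher in miR-27 Tg, beside 15.9% of all genes. Skp2, the F-box protein that marks p27 for destruction, was 1.88-fold higher there and its cofactor Cks1b 2.62-fold higher. In cluster Tg 3 passed as higher, beside 13.8% of all genes, with Skp1a at 1.37-fold, Cops5 at 1.23-fold and Cul1 at 1.16-fold. None of the 8 passed in miR-23 Tg, miR-24 Tg or DKO in the limma fit.

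Some genes of the p53 axis passed as higher than in WT, and most did not pass. Of 19 tested genes of the p53 axis, 5 were higher in miR-27 Tg, 4 in cluster Tg and 3 in miR-24 Tg, and 0 lower, beside 15.9%, 13.8% and 4.60% of all genes higher. Phlda3, which restrains Akt, was 3.15-fold higher in miR-27 Tg cells and 2.55-fold higher in cluster Tg, and Bax, which promotes apoptosis, 1.40-fold and 1.28-fold. Aen and Polk were 1.20 to 1.41-fold higher in miR-24 Tg, miR-27 Tg and cluster Tg. Mdm2, Ccng1 and Trp53 itself had ratios to WT of 0.971, 1.04 and 1.10 in miR-27 Tg and did not pass. In miR-23 Tg and DKO 0 of 19 passed in the limma fit.

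FoxO factors promote Cdkn1b transcription in resting cells. Of 12 FoxO factors and targets, 4 were lower in miR-27 Tg cells and the same 4 in the cluster Tg libraries, beside 12.7% and 10.5% of all genes lower. Foxo1 was 1.26-fold lower in miR-27 Tg cells and 1.31-fold lower in cluster Tg, and Klf2, a quiescence factor of T cells, 1.68-fold and 1.71-fold lower. The homing receptor Ccr7 was 1.76-fold and 1.98-fold lower, and Pik3ip1, a restraint on PI3 kinase, 1.70-fold and 1.48-fold lower. In miR-24 Tg Foxo1, Ccng2 and Ccr7 were 1.34-fold, 1.23-fold and 1.34-fold lower. In miR-23 Tg and DKO 0 of 12 passed in the limma fit.

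Polycomb proteins repress the Cdkn2a locus. Of 10 such genes, Ezh2, the histone H3 lysine methyltransferase, was 1.80-fold higher in miR-27 Tg cells and 1.51-fold higher in cluster Tg, in the same groups where Cdkn2a was higher. Rnf2 (Ring1B) was 1.28-fold lower in cluster Tg and 1.59-fold lower in miR-24 Tg. In miR-23 Tg and DKO 0 of 10 passed in the limma fit.

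Proliferation genes moved with the members in part. Of 32 genes, 31 were higher in miR-27 Tg, 18 in cluster Tg and 0 in miR-23 Tg, miR-24 Tg and DKO in the limma fit. Mki67, the Ki-67 proliferation marker, was at 31.9, 82.6 and 71.7 RPKM in miR-27 Tg, 31.0, 28.1 and 31.1 in the cluster Tg libraries and 24.9, 22.3 and 25.7 in miR-23 Tg, against 5.69, 11.8 and 10.4 in WT. Their summed level was 780-846 RPKM in miR-23 Tg cells, 497-725 in miR-24 Tg, 773-1529 in miR-27 Tg cells and 751-798 in cluster Tg, against 390-623 in DKO and 409-552 in WT. The summed level of miR-23 Tg overlapped that of cluster Tg, and miR-27 Tg library 1 was at 773 RPKM. Cdkn2c was at 11.8-12.3 RPKM in miR-23 Tg cells and at 22.3 RPKM or more in the cluster Tg libraries and miR-27 Tg library 1. The part of proliferation in the higher Cdkn2c was not tested.

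The mean log2 level of the proliferation genes, and not their summed RPKM, was used as a covariate. With it, the log2 change of Cdkn2c against WT was 1.34 in miR-27 Tg (adjusted p = 0.0047, limma). In cluster Tg it was 1.48 (adjusted p = 0.000213, limma). For Cdkn2a it was 2.46 in miR-27 Tg (adjusted p = 0.0601, limma) and 2.89 in cluster Tg (adjusted p = 0.00549, limma). Cdkn1a passed no longer in miR-27 Tg, at a log2 change of 3.50 (adjusted p = 0.0652, limma). In cluster Tg it kept its call, at 3.10 (adjusted p = 0.0253, limma), and it gained calls in miR-27 Tg against miR-23 Tg (adjusted p = 0.0475, limma) and, for the cluster Tg libraries, against DKO (adjusted p = 0.043, limma). All 3 members kept their calls against WT in cluster Tg with this covariate, and Cdkn2c alone did in miR-27 Tg. Cdkn2a met the filter through these groups, so its call adds nothing to that count. The proliferation level and the genotype run together, so this fit cannot separate them. With the covariate 946 genes of the whole table were higher and 621 lower in miR-27 Tg, in place of 1830 and 1464. In cluster Tg 1358 were higher and 906 lower, in place of 1592 and 1214.

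**Figure D4:**
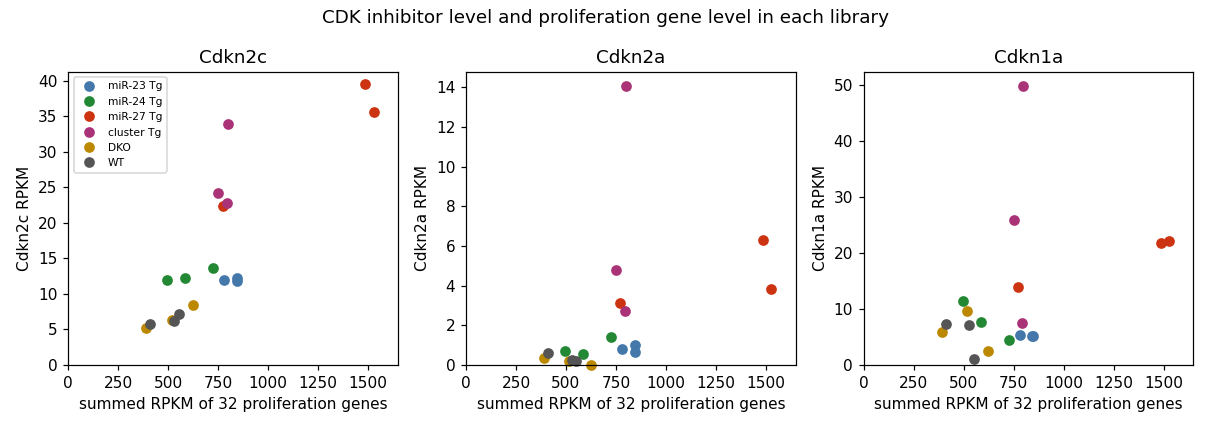
RPKM of Cdkn2c, Cdkn2a and Cdkn1a (vertical axes, linear, from 0) against the summed RPKM of 32 proliferation genes (horizontal axes) in each of the 18 libraries, coloured by genotype. At sums of 751-846 RPKM the miR-23 Tg libraries lie below the cluster Tg libraries for all 3 genes.

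Markers of other cell types also differed between the groups. The summed level of 8 B cell genes was 36.9-45.7 RPKM in miR-23 Tg cells, 39.9-92.7 in miR-24 Tg, 37.3-107 in miR-27 Tg cells and 29.8-45.2 in cluster Tg, against 19.4-22.9 in DKO and 19.6-24.9 in WT. Of the 8, 8 passed as higher in miR-27 Tg, 6 in miR-24 Tg cells and 0 in cluster Tg with limma, and none was at 0 in any group. The summed level of 7 myeloid genes was 51.5-99.4 RPKM in miR-27 Tg cells and 38.3-46.5 in cluster Tg, against 22.0-28.4 in WT. For the 4 plasma cell genes measured the summed level ranged over 20.9-113 RPKM in miR-27 Tg cells and over 16.9-22.0 for cluster Tg libraries, against 7.26-8.65 for WT. Of these 4, 3 passed as higher in miR-27 Tg cells and 0 for cluster Tg with limma. The summed level of 3 NK cell genes was 15.2, 4.74 and 17.4 RPKM in miR-27 Tg cells and 14.5, 5.35 and 2.63 in cluster Tg, whereas the WT libraries ranged over 1.55-2.07. It was 4.55-5.93 RPKM in miR-23 Tg cells, 3.83-8.62 RPKM in miR-24 Tg cells and 1.70-4.08 RPKM in DKO. In cluster Tg the order of the 3 libraries was the same for the NK cell sum, Cdkn1a, Cdkn2a and Cdkn2c, and Cdkn1b and Cdkn2d had other orders. Among the miR-27 Tg libraries none of Cdkn1a, Cdkn2a and Cdkn2c had the order of the NK cell sum. Of the 3 NK cell genes 2 passed as higher in miR-27 Tg cells and 1 in the cluster Tg libraries, and none was at 0 throughout a group. The part of NK, plasma and myeloid cells in the members' differences was not tested. The B cell level of miR-23 Tg overlapped that of cluster Tg, and miR-27 Tg library 1 was at 37.3 RPKM, within the range of miR-23 Tg.

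The mean log2 level of the B cell genes, and not their summed RPKM, was also used as a covariate. With it, the log2 change of Cdkn2c was 1.90 in miR-27 Tg (adjusted p = 0.00826, limma). In cluster Tg it was 1.88 (adjusted p = 0.000177, limma), and that of Cdkn2a was 2.94 (adjusted p = 0.00143, limma). The calls of Cdkn2a in miR-27 Tg (log2 2.56, adjusted p = 0.0629, limma), of Cdkn1a in miR-27 Tg (2.03, adjusted p = 0.358) and cluster Tg (2.28, adjusted p = 0.0537) and of Cdkn2c in miR-24 Tg (0.67, adjusted p = 0.226) were lost. The B cell level and the genotype run together, and with that covariate 321 genes of the whole table were higher and 186 lower in miR-27 Tg, in place of 1830 and 1464. In cluster Tg 1294 were higher and 974 lower, in place of 1592 and 1214, and in miR-24 Tg 156 and 155, in place of 530 and 504.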

How the data were processed

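RNA sequencing libraries of sorted Treg cells were made from total RNA with TruSeq RNA kits, per the labels' protocols. The authors deposited 1 table of RPKM values for the 18 libraries. STAR 2.2.0c, HOMER and the build mm10 (GRCm38) are named in the submitters' processing notes, and which step made the RPKM values is not given in the sources used here. Of 23953 entries, 4 with a repeated symbol were left out. All 18 columns were used.

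RPKM values are not counts, so log2(RPKM + 0.5) of the 11520 genes reaching 1 RPKM in 3 or more libraries was fitted with limma 3.58.1 in R 4.3.3, with a mean-variance trend and all 6 groups in 1 model (12 residual and 2.26 prior degrees of freedom). P-values were adjusted by the Benjamini-Hochberg method over all tested genes within each comparison. Fold changes are on the log2(RPKM + 0.5) scale and understate those of low genes. Counting reads from the steps between RPKM values, Cdkn2c and Cdkn2d came out whole (within 0.02 reads) in 18 of 18 libraries and Cdkn2a in 12, while no step was found for Cdkn1a and Cdkn1b. Data for the 18 libraries were also simulated from each gene's mean over all libraries and its spread within the 6 groups. Shifts of 2-fold and 4-fold were added to 100 genes each in miR-27 Tg. For miR-27 Tg against WT, over 11359 genes, the fit recovered 83% of 2-fold and 94% of 4-fold changes, with 9 false calls. The simulated noise was independent between genes and held no differences in cell mix, so real data may be harder. Figures were drawn with matplotlib 3.10.9 in Python 3.11.15.

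The members and lists were chosen with earlier results of these data known. Named genes were the 5 members, the 3 genes with the highest correlation with each (mean of at least 5 RPKM), at most 4 called genes of each list by smallest p, Mki67 and Foxp3. Mdm2, Ccng1, Trp53, Cdkn1c, Cdkn2b and the microRNA entries were named beside these. The alternatives tried were pseudocounts of 0.1 and 1, no filter, median-of-ratios scaling, the replicate number as a block, each library left out, miR-24 Tg 1 and miR-27 Tg 3 left out together, B cell and proliferation covariates, and a fit of the 2 compared groups.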

Additional observations from a re-analysis of the deposited data

How the results depend on the processing

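Cdkn2c kept its calls against WT in miR-27 Tg and cluster Tg under each alternative run. Between the 6 genotypes, and in the counts of members called in cluster Tg and DKO against WT, each alternative gave a count within 1.5 times the reported one. With the B cell covariate 0 members passed in miR-24 Tg cells and 1 in miR-27 Tg, and with the proliferation covariate 1 in miR-27 Tg. In a fit of the 2 compared groups 1 member, Cdkn2c, passed in miR-23 Tg, and Cdkn1a was lost in miR-27 Tg (adjusted p = 0.0601) and cluster Tg (0.108), leaving 2 members in each. With no filter Cdkn1a was lost in miR-27 Tg (0.0513). Leaving out single libraries gave 1 to 2 called members in miR-24 Tg against WT. Of 33 calls of single members lost under an alternative, 27 were of Cdkn1a, 4 of Cdkn2a and 2 of Cdkn2c, and the cause was not tested. Deviations from the group means had a median correlation of 0.004 over 45 same-numbered pairs (-0.167 to 0.188, 6 over 0.1), and 9 of 18 libraries correlated best with their own number. Whether libraries with the same replicate number belong together cannot be told from these values. With the replicate block, 3 members passed in miR-27 Tg, 3 in cluster Tg, 1 in miR-24 Tg and 0 in miR-23 Tg and DKO against WT. In the F test 3 passed, and among the other genotypes 18 of 50 combinations did in place of 13. Cdkn1a was added in miR-27 Tg and cluster Tg against miR-23 Tg and DKO, and Cdkn2c in miR-23 Tg against DKO (log2 0.83, adjusted p = 0.0442, limma). Calls also rose over all tested genes with this block. Against miR-23 Tg, 1642 genes were higher in miR-27 Tg in place of 1431, and 1397 in cluster Tg in place of 1257. Against DKO the counts were 1956 in place of 1813 in miR-27 Tg, 1942 in place of 1734 in cluster Tg and 194 in place of 75 in miR-23 Tg.

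Directions changed in 35 cases, in all of which neither value passed. With the B cell covariate the log2 differences from WT were 0.16, 0.15 and 0.0622 for Cdkn1b and -0.34, -0.53 and -0.11 for Cdkn2d in miR-23 Tg, miR-27 Tg and cluster Tg. With the proliferation covariate they were 0.13, 0.17 and 0.13 for Cdkn1b and -0.33, -0.68 and -0.34 for Cdkn2d, and between genotypes -0.40 for Cdkn1a and 0.14 for Cdkn2c in cluster Tg against miR-27 Tg and 0.85 for Cdkn1a in miR-23 Tg against DKO. Without miR-24 Tg 1 and miR-27 Tg 3, Cdkn2d was at -0.0409 in miR-27 Tg. Leaving out single libraries, the log2 differences from WT ranged from -0.42 to 0.76 for Cdkn1a in miR-23 Tg, from -0.0409 to 0.41 for Cdkn2d in miR-27 Tg, from -0.087 to 0.0374 for Cdkn1b and -0.065 to 0.22 for Cdkn2d in cluster Tg, and from -0.40 to 0.87 for Cdkn1a, -0.14 to 0.19 for Cdkn2c and -0.0407 to 0.18 for Cdkn2d in DKO. Between the other genotypes they ranged from -0.22 to 0.21 for Cdkn2a in miR-24 Tg against miR-23 Tg, -0.41 to 0.92 for Cdkn1a and -0.21 to 0.89 for Cdkn2a in cluster Tg against miR-27 Tg, and -0.503 to 0.39 for Cdkn1a in miR-23 Tg and -0.0293 to 0.86 in miR-24 Tg against DKO.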
